A study of Mus musculus with 6 samples.

Results

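Rap1a and Rap1b are small GTPases of the Ras superfamily, and the 10 genes described here encode them together with the proteins that switch them on and off. The members were taken by gene symbol: the GTPases Rap1a and Rap1b, the guanine nucleotide exchange factors Rapgef1 to Rapgef6, and the GTPase-activating proteins Rap1gap and Sipa1l1. They are 10 of the 15667 genes in the table, and 10 of 10 had a mean level of at least 1 CPM (reads of the gene per 1000000 reads), so that all entered the fit over 14306 genes. The group was chosen because Rap1a and Rapgef4 differed in opposite directions between the genotypes in these same libraries. The KO and WT values below are therefore a description of what selected the genes, and no p-value is given for a member.

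The study asked whether host adiponectin, a hormone secreted by fat cells, affects how ticks acquire Borrelia burgdorferi. Part of it compared bitten skin of mice with and without adiponectin. RNA-seq was performed on ear skin from 3 wild-type mice (WT, Adipo+/+) and 3 adiponectin-deficient mice (KO, Adipo-/-), littermates of the strain B6;129-Adipoq tm1Chan/J. All 6 mice were 7- to 8-week-old females on which 10 Ixodes scapularis nymphs had fed for 48 h, and a single punch was taken from a bite site. The null allele is present in every cell of the animal from conception, the strain background is mixed, and the sources used here do not say whether these mice carried Borrelia burgdorferi. Skin without a tick was not analysed here, so the values compare genotypes within bitten skin and not bitten with unbitten skin.

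A Rap1 protein is inactive when it holds GDP and active when it holds GTP. Exchange factors load GTP, and GTPase-activating proteins speed its hydrolysis. Active Rap1 is best known for raising integrin adhesion in leukocytes and platelets and for strengthening cadherin junctions in epithelium and endothelium. The exchange factors differ in what turns them on: Rapgef1 acts downstream of Crk adaptors, Rapgef3 (Epac1) and Rapgef4 (Epac2) bind cAMP, and Rapgef2 and Rapgef6 are PDZ domain proteins.

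The Rap1a and Rap1b coding sequences are shown because the proteins are nearly alike and their reads must be separated by base differences. The first 120 coding bases of each, 5′ to 3′, are given from the GRCm38 reference with GENCODE M21 models, and capitals mark the bases at which the 2 genes differ. Both stretches are exonic and span 2 exons, at chr3:105745910-105750301 on the minus strand for Rap1a and chr10:117822807-117824650 on the minus strand for Rap1b.
Rap1a: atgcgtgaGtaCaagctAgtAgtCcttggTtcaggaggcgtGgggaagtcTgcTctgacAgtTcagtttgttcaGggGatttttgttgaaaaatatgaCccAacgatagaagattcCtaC
Rap1b: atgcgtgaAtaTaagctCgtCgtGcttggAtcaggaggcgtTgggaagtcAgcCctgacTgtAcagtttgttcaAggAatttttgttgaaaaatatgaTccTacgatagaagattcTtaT
Within this stretch 17 bases differed and 0 of 40 encoded residues did. Over the whole coding sequence of 555 bases 102 differed, 79 of them at the last position of a codon, which left 81.6% of bases and 95.1% of 184 residues identical. The encoded proteins differed at 9 residues, 7 of which lay in the last 50. The longest run shared by annotated coding transcripts of the genes was 20 bases, so a longer aligned read holds at least 1 base that tells them apart.

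The promoter of Rapgef4 is shown because this gene had the largest difference between KO and WT among the members. The window runs from 250 bases before to 50 bases after the RefSeq start in GRCm38.p6, at chr2:71980965-71981264 on the plus strand, and capitals mark the GC box (GGGCGG on either strand, overlapping matches merged).
Rapgef4 promoter: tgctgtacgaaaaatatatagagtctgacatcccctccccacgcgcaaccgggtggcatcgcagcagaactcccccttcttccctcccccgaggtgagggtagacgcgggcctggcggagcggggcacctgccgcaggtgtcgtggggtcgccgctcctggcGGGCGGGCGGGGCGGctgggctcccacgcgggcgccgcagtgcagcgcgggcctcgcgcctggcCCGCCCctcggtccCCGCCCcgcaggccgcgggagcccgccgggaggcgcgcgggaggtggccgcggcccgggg
This window held 5 GC box matches and was 76.7% G or C, against a median of 52.7% over 32851 promoters. GC boxes are common: 35.7% of all promoters held a match, as did 11 of 18 promoter windows of the 9 members with an entry, and 8 members had at least 1. The cAMP response element (TGACGTCA) was in 1.79% of all promoters and, among the members, in that of Rap1b. The E-box (CACGTG) was in 7.15% of all promoters and in that of Rap1gap. The AP-1 site (TGACTCA) was in 5.20% of all promoters and in 0 of 18 windows of the members. The letters of a motif do not show that a factor is bound.

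Read depth implied by the CPM values ranged from 3403773 to 6591320 reads per library, so that 3 reads corresponded to 0.455 to 0.881 CPM. Adipoq, the deleted gene, was at 30.5, 63.7 and 49.6 CPM in WT mice 1, 2 and 3 and at 0, 0.560 and 0 CPM in KO mice 1, 2 and 3. The samples were checked against marker genes of 12 cell types, and the summed marker levels of WT and KO overlapped for all 12 lists. The KO mean was nevertheless lower for every gene of the hair follicle (8 of 8), adipocyte (6 of 6), skeletal muscle (6 of 6) and neutrophil (6 of 6) lists and higher for 4 of 4 cartilage genes, and the part of this in the members' values was not tested. The sums ranged over the 6 libraries from 21072 to 38790 CPM for 6 keratinocyte genes, 2987 to 4593 for 5 fibroblast genes, 1540 to 3717 for 6 skeletal muscle genes, 140 to 483 for 6 adipocyte genes, and 118 to 230 for 5 Schwann cell genes. They ranged from 94.1 to 145 CPM for 7 endothelial genes, 356 to 717 for 6 macrophage genes, 31.3 to 556 for 6 neutrophil genes, 18.2 to 27.9 for 5 T cell genes, 29.1 to 61.7 for 4 platelet genes, and 75.3 to 215 for the 4 cartilage genes measured. Hair follicle genes stood apart: the sum of 8 was 8.23 and 9.56 CPM in WT mice 1 and WT 2 but 21466 in WT 3, with 884 to 8627 in KO, and 6 of the 8 were at 0 in at least 1 library, as was the platelet gene Gp9.

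Rap1a was lower in KO skin and Rap1b overlapped between the genotypes. Rap1a (chromosome 3, 105727260 to 105801381, minus strand) was at 44.1, 47.0 and 38.6 CPM in WT mice 1, 2 and 3 and at 35.5, 34.5 and 32.0 CPM in KO mice 1, 2 and 3. Every KO value lay below every WT value, with a gap of 38.6 to 35.5 CPM between the nearest pair, an arrangement that 4.89% of all genes tested showed. The means were 43.2 ± 4.27 (SD, n = 3) in WT and 34.0 ± 1.79 (SD, n = 3) in KO. The log2 fold change of KO over WT, on the scale of log2(CPM + 0.5), was -0.34 with a standard error of 0.13, and 10.8% of the genes tested had a lower one. These levels rest on 109 to 234 reads per library. For the nearest pair the exact Poisson intervals, of the kind given for Rapgef4 below, overlapped. They were 33.8 to 43.9 CPM in WT 3 and 31.1 to 40.4 CPM in KO 1. The gap between these libraries was thus within counting error. Without WT 3, the library rich in hair follicle RNA, the estimate was -0.42.

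Rap1b (chromosome 10, 117814597 to 117845974, minus strand) encodes the predominant Rap1 of platelets. It was measured at 138, 166 and 109 CPM in WT mice and 119, 134 and 115 CPM in KO mice, and the lowest value of all 6 was that of WT 3. The means were 138 ± 28.5 and 123 ± 10.3 CPM (SD, n = 3 each), with a log2 fold change of -0.15 and a standard error of 0.16. Leaving out WT 2 took the estimate to -0.0064, and leaving out WT 3 took it to -0.31.

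The balance of the GTPases can be read within a library, where scaling between libraries plays no part. Rap1a supplied 24.2%, 22.0% and 26.1% of the reads of Rap1a and Rap1b in WT, and 23.0%, 20.4% and 21.8% in KO. The ranges overlapped, with means of 24.1% ± 2.02 and 21.7% ± 1.27 (SD, n = 3 each), a difference of -2.35 percentage points. Rap1b was thus the more abundant transcript in all 6 libraries, and summed GTPase levels were 181 ± 32.7 CPM in WT mice and 157 ± 11.2 CPM in KO mice (SD, n = 3 each), with overlapping values.

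**Figure D1:**
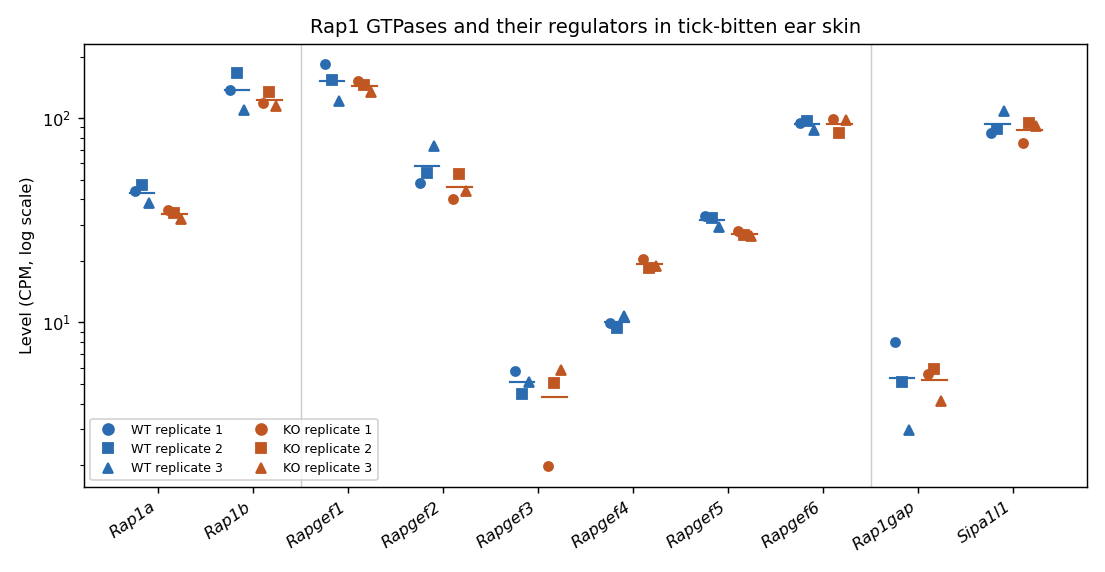
Level of each of the 10 genes in CPM on a log axis, with 1 point per library (blue WT, orange KO, marker shape for the replicate number) and a bar at each mean. Grey lines separate GTPases, exchange factors and GTPase-activating proteins. Rapgef4 is the only gene with all 3 KO points above all 3 WT points, and Rap1a and Rapgef5 are the 2 with all KO points below.

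Rapgef4 was the exchange factor with the largest difference and was higher in KO skin. The gene (chromosome 2, 71981215 to 72257474, plus strand) encodes Epac2, known for its role in insulin secretion and in neurons. It was measured at 9.92, 9.36 and 10.7 CPM in WT mice 1, 2 and 3, and 20.3, 18.5 and 18.8 CPM in KO mice 1, 2 and 3. All KO values lay above all WT values, as for 2.95% of all genes tested, and within each genotype the 3 libraries were close together. The means were 9.999 ± 0.682 and 19.2 ± 0.982 CPM (SD, n = 3 each), a ratio of 1.92, and the log2 fold change was 0.91 with a standard error of 0.16. Of all genes tested, 98.9% had a lower fold change.

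Few reads stand behind these values: 41, 46 and 65 in WT and 134, 66 and 64 in KO. The exact 95% Poisson intervals, which cover counting error only, were 7.12 to 13.5, 6.85 to 12.5 and 8.27 to 13.7 CPM in WT mice. In KO they were 17.0 to 24.1, 14.3 to 23.5 and 14.5 to 24.0 CPM. They say nothing of the spread between mice. With each library left out in turn the fold change ran from 0.86 to 0.96. Part of an exon of Rapgef4 is shared with the antisense gene Rapgef4os2, and since strand use in counting is not stated, reads of the 2 cannot be told apart there.

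Rapgef3, the other cAMP-activated exchange factor and one known from endothelium, did not follow Rapgef4. Rapgef3 (chromosome 15, 97744770 to 97767666, minus strand) was at 5.81, 4.48 and 5.11 CPM in WT mice and at 1.97, 5.04 and 5.88 CPM in KO mice. The KO values spanned the lowest and the highest of all 6, and the low value, in KO 1, rested on 13 reads. The means were 5.13 ± 0.667 and 4.30 ± 2.06 CPM (SD, n = 3 each), with a log2 fold change of -0.34 and a standard error of 0.39. Without KO 1 the estimate turned to 0.08. KO 1 also had the lowest sum of the 7 endothelial markers, 94.1 CPM against 132 to 145 CPM in the others. It was lowest too in the adipocyte, skeletal muscle, T cell and platelet sums. The part of any of these in the Rapgef3 value was not tested. In bulk skin, fewer cells of a type and less RNA per cell cannot be told apart. Exons of Rapgef3 are shared with the antisense genes Rapgef3os1 and Rapgef3os2.

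Of the reads of these cAMP-activated factors together, Rapgef4 supplied 63.1%, 67.6% and 67.7% in WT and 91.2%, 78.6% and 76.2% in KO. Each KO share was above each WT share, with means of 66.1% ± 2.66 and 82.0% ± 8.04 (SD, n = 3 each), a difference of 15.8 percentage points. The exact 95% binomial intervals, which cover counting error only, overlapped those of WT for KO 2 and KO 3 but not for KO 1. In the nearest pair they were 57.4% to 76.9% for WT 3 and 65.7% to 84.8% for KO 3. The highest share was that of KO 1, in which Rapgef3 was low. Without KO 1 the difference was 11.2 percentage points.

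**Figure D2:**
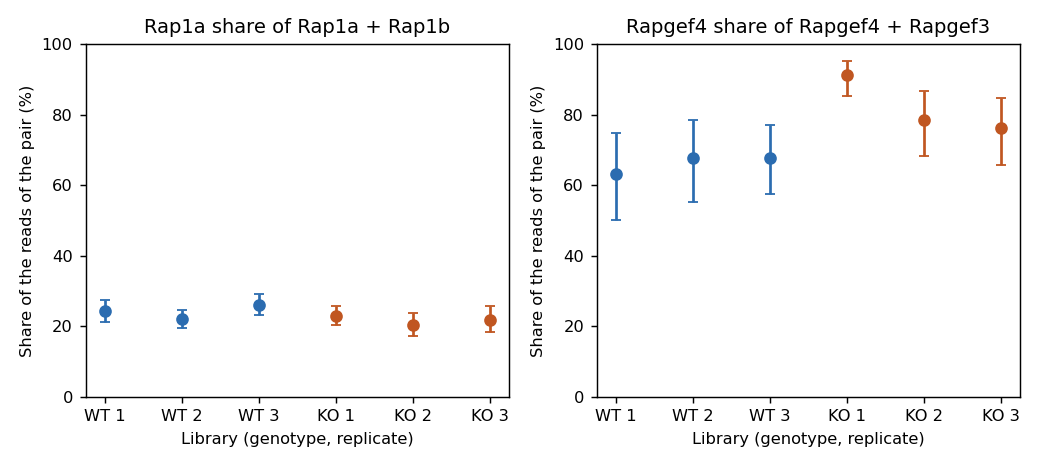
Share of the reads of each gene pair, in percent, that belonged to Rap1a (left) or to Rapgef4 (right) in every library (blue WT, orange KO). Bars are exact 95% binomial intervals and cover counting error only. The Rap1a share stays between 20.4% and 26.1%, and the Rapgef4 share is 63.1% to 67.7% in WT and 76.2% to 91.2% in KO.

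Rapgef5, an exchange factor for Rap and related GTPases, was lower in KO skin. It lies on chromosome 12 (117516526 to 117759737, plus strand). Its values were 33.2, 32.5 and 29.2 CPM in WT mice and 27.9, 26.9 and 26.4 CPM in KO mice. As for Rap1a, all KO values were below all WT values, here with a gap of 29.2 to 27.9 CPM. The means were 31.6 ± 2.14 and 27.1 ± 0.753 CPM (SD, n = 3 each), and the log2 fold change was -0.22 with a standard error of 0.13. Over the 14 alternative settings the estimate lay between -0.27 and -0.17. As the measured values of the genotypes did not overlap, leaving out a library or changing the pseudocount could not turn the sign of the estimate.

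The remaining exchange factors overlapped between the genotypes. Rapgef1 (chromosome 2, 29619720 to 29740363, plus strand) was at 184, 153 and 121 CPM in WT mice and at 151, 145 and 134 CPM in KO mice. WT held both its highest and its lowest value, the means were 153 ± 31.5 and 143 ± 8.94 CPM (SD, n = 3 each), and the log2 fold change was -0.07 with a standard error of 0.16. It became 0.07 without WT 1, and Rapgef1 shares exon bases with the pseudogene Gm9823.

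Rapgef2 (chromosome 3, 79062511 to 79145875, minus strand) was at 48.2, 54.1 and 73.2 CPM in WT mice and at 40.4, 53.2 and 43.8 CPM in KO mice. WT 3 was well above the other 5 libraries, and it was also the library with the most hair follicle RNA, whose part in this value was not tested. The means were 58.5 ± 13.1 and 45.8 ± 6.68 CPM (SD, n = 3 each), with a log2 fold change of -0.34 and a standard error of 0.18, which was -0.17 without WT 3. The estimate for Rapgef2 was thus close to that of Rap1a, but its groups overlapped.

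Rapgef6 (chromosome 11, 54522845 to 54699286, plus strand) was the most even of the exchange factors. It was at 95.1, 96.6 and 87.4 CPM in WT mice and at 98.6, 84.9 and 97.5 CPM in KO mice. The means were 93.0 ± 4.96 and 93.7 ± 7.62 CPM (SD, n = 3 each), with a log2 fold change of 0.01 and a standard error of 0.11. Summed over the 6 exchange factors the level was 351 ± 24.8 CPM in WT mice and 333 ± 7.24 CPM in KO mice (SD, n = 3 each). Without Rapgef4 it was 341 ± 25.2 and 314 ± 6.50 CPM (SD, n = 3 each). The genotypes overlapped in both sums, which are not corrected for gene length.

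The GTPase-activating proteins showed no separation of the genotypes. Rap1gap (chromosome 4, 137664726 to 137729861, plus strand) was low, at 7.99, 5.09 and 2.97 CPM in WT mice and at 5.61, 5.88 and 4.11 CPM in KO mice. WT 1 was highest and WT 3 lowest, as in the neutrophil sum (556 and 31.3 CPM). However, WT 3 was also lowest in the keratinocyte, macrophage and Schwann cell sums. Within KO, the neutrophil sum was highest in KO 1 (192 CPM) but Rap1gap was highest in KO 2. The part of any cell type was not tested. The log2 fold change of Rap1gap was 0.04 with a standard error of 0.37, and it ranged from -0.29 without WT 3 to 0.36 without WT 1. Sipa1l1 (chromosome 12, 82170016 to 82451784, plus strand), which also binds actin, was at 85.0, 88.7 and 108 CPM in WT mice and at 75.55, 94.997 and 91.66 CPM in KO mice. The means were 93.9 ± 12.5 and 87.4 ± 10.4 CPM (SD, n = 3 each), with a log2 fold change of -0.10 and a standard error of 0.14. The highest value was again that of WT 3, without which the estimate was 0.0028.

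Levels of different genes were compared per length, as CPM per kilobase of the annotated transcript with the longest coding sequence. Over the 6 libraries Rap1b had the highest mean, 47.8 CPM per kb, and each of its values exceeded each value of Rapgef1, next at 23.7 CPM per kb. Rap1a at 16.0 and Rapgef6 at 15.9 CPM per kb overlapped each other, and the range of Rap1a also touched that of Rapgef1. Sipa1l1 at 11.04 CPM per kb lay below both and overlapped Rapgef2 at 7.49. Rapgef5 and Rapgef4 followed at 4.35 and 3.49, and Rap1gap and Rapgef3 were lowest at 1.27 and 1.18 CPM per kb, with overlapping values.

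The order of Rapgef4 and Rapgef5 per length was not the same in the genotypes. In WT, Rapgef4 was at 2.24 to 2.56 CPM per kb and Rapgef5 at 4.33 to 4.92. In KO, Rapgef4 was at 4.42 to 4.86 CPM per kb and Rapgef5 at 3.92 to 4.14. A different transcript in use would change these levels.

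Of the 10 members, 7 had a lower and 3 a higher estimate in KO, and their median log2 fold change was -0.13, against -0.03 over all 14306 genes, of which 56.7% were lower. All KO values lay below all WT values for 2 members, as for 4.89% of all genes, and above for 1 member, as for 2.95% of all genes. At an unadjusted limma p below 0.05, 1 member was lower (1.82% of all genes were) and 1 was higher (1.06% were). These percentages shift with scaling, since 260 lower and 152 higher genes became 215 and 210 with median-of-ratios scaling. After Benjamini-Hochberg adjustment over all genes 0 of 10 members had a p below 0.05, as had 0.0140% of all genes. Nothing is read from these counts, because the same contrast chose the members.

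**Figure D3:**
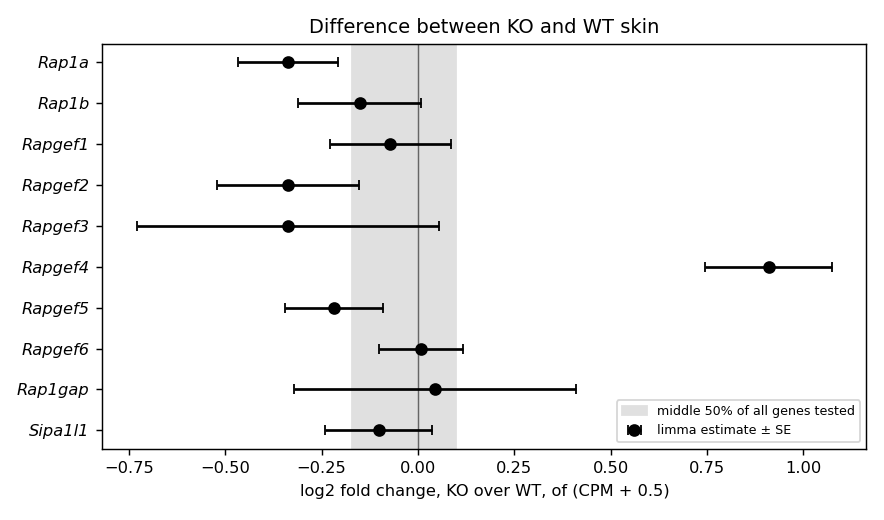
Estimated log2 fold change of KO over WT for each gene, on the log2(CPM + 0.5) scale, with bars of 1 standard error (3 libraries per genotype). The shaded band holds the middle 50% of the 14306 genes tested, from -0.17 to 0.10. Rapgef4 at 0.91 is far to the right of the band, and Rap1a, Rapgef2 and Rapgef3 at -0.34 lie to its left with bars of different length.

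The rest of the pathway was examined with a list of 67 genes in 8 roles, of which 64 were tested. Pde4c was not analysed here, Afdn was listed under its current and its older symbol, and Skap1 was below the level filter. At an unadjusted p below 0.05, 0 of 64 were lower and 0 were higher, where 1.82% and 1.06% of all genes were. For 0 of 64 were the genotypes without overlap, where 4.89% of all genes had every KO value below and 2.95% every KO value above those of WT. The counts of 0 among 64 genes were not tested against these shares and are not read as a result about the pathway. Adjusted p-values were not below 0.05 for any of the 64. Estimates were lower in KO for 43 and higher for 21, beside 56.7% lower over all genes tested. Their median log2 fold change was -0.08, beside -0.03 over all genes, which itself turned to 0.0064 with quantile scaling, and they ranged from -0.57 to 0.27.

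Among 6 other Rap1 exchange factors the median was -0.04, with 3 lower and 3 higher. Rapgefl1, an exchange-factor-like relative of the Rapgef proteins and the highest of these 6 at a mean of 283 CPM, had a log2 fold change of 0.22 (SE 0.13), which was 0.12 without WT 1. Dock4, which activates Rap1 and Rac, was at 18.7 ± 3.41 CPM in WT mice and 13.7 ± 4.96 CPM in KO mice (SD, n = 3 each), and had the largest estimate of this role at -0.47 (SE 0.27). It was -0.28 without KO 1 and -0.74 without KO 2. The medians were -0.03 for 6 other GTPase-activating proteins, led in level by Sipa1l3 at 188 CPM, and -0.09 for the 3 Rap2 GTPases, close relatives of Rap1. Sipa1 was at 14.8 ± 1.64 and 12.7 ± 2.60 CPM, and Rap2c was at 69.3 ± 4.34 and 63.5 ± 2.36 CPM (SD, n = 3 each).

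Upstream of the members, 13 genes of cAMP supply and removal had a median of -0.08, with 8 lower and 5 higher. Prkar1a, a regulatory subunit of protein kinase A, had the highest mean at 207 CPM and a log2 fold change of -0.11. Pde4d, a phosphodiesterase that degrades cAMP, was at 26.8 ± 6.19 CPM in WT mice and 19.7 ± 2.39 CPM in KO mice (SD, n = 3 each), an estimate of -0.41 (SE 0.21). The 7 adaptors tested had a median of -0.04, among them Crk at a mean of 152 CPM and Skap2 at 40.3 ± 9.75 and 35.8 ± 6.31 CPM. The 4 genes for membrane attachment had a median of -0.07. Pggt1b, a subunit of the enzyme that adds the lipid anchor to Rap1, was at 32.6 ± 4.44 and 26.4 ± 1.56 CPM (SD, n = 3 each), and Icmt, which methylates that end, averaged 91.3 CPM.

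Downstream, 13 effector genes had a median of -0.03, with 8 lower and 5 higher. Tiam1, a Rac exchange factor, was the highest at 496 CPM with an estimate of 0.04, and Arap3 was at 9.90 ± 1.38 and 8.88 ± 3.50 CPM. The 12 adhesion receptors and partners had the lowest median of the 8 roles, -0.19, with 10 lower and 2 higher, beside 56.7% lower over all genes, and 0 of the 12 passed the unadjusted test. Several of these genes belong to leukocytes and platelets. Among markers of those cells, the KO mean was lower for 6 of 6 neutrophil, 5 of 6 macrophage, 4 of 5 T cell and 2 of 4 platelet genes. The sum of each of these lists overlapped between the genotypes. The neutrophil sum was 556, 200 and 31.3 CPM in WT mice 1, 2 and 3, and 192, 84.1 and 90.2 CPM in KO mice 1, 2 and 3. The platelet sum was 29.1 and 36.1 CPM for KO 1 and KO 3 but 61.7 for KO 2, against 55.2 to 56.8 in WT. The part of these cells in the adhesion estimates was not tested. Cdh1, the epithelial cadherin, averaged 678 CPM with an estimate of -0.02, which turned positive under both other scalings. Itga2b, the platelet integrin chain, was at 7.84 ± 3.40 CPM in WT mice and 4.89 ± 0.763 CPM in KO mice (SD, n = 3 each), an estimate of -0.57 (SE 0.32). The highest Itga2b value was 11.7 CPM in WT mice 3, against 4.41 to 6.54 CPM in the other libraries, and without WT 3 the estimate was -0.25.

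**Figure D4:**
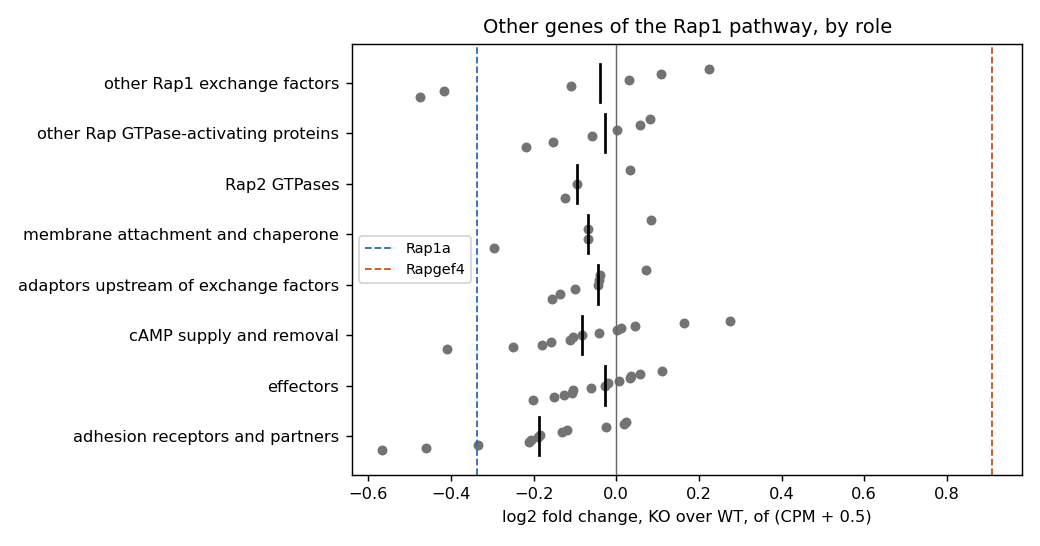
Log2 fold change of KO over WT, on the log2(CPM + 0.5) scale, of the 64 other pathway genes tested, 1 point per gene, grouped by role with a black bar at each median. Dashed lines mark the values of Rap1a (-0.34) and Rapgef4 (0.91). All points lie between -0.57 and 0.27.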

How the data were processed

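Total RNA from ear punches was sequenced in paired-end libraries, 1 per mouse, with 3 WT and 3 KO. Per the submitters' processing notes and the methods, reads were trimmed, aligned to mm10 with STAR 2.7.3a and quantified in Partek against Ensembl transcripts. Whether those models gave the gene positions in the table is not certain, and the levels per length, overlapping genes and promoter start rest on the GENCODE and RefSeq models used here. The deposited values are CPM, normalized by the authors per 1000000 reads with an offset of 0.0001, which was subtracted. Values were mostly whole multiples of 1 read, but not nearly all (91.6% to 92.7% of low values within 0.1). The main fit therefore used no count model. Reads per library were estimated from the CPM of 1 read. The Poisson and binomial intervals, and the limma voom alternative, used reads rounded to whole numbers and are therefore approximate.

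Genes whose mean level reached 1 CPM were compared as log2(CPM + 0.5) with limma 3.58.1 in R 4.3.3 (two-sided moderated test by lmFit and trended eBayes, Benjamini-Hochberg over 14306 genes). All fold changes are on this scale, which understates those of low genes. The script was tested on simulated data. P-values and standard errors rest on the spread between 3 mice per genotype, moderated by eBayes toward that of genes at a similar level. The members and lists were chosen with earlier results of these data known. All members were named, and in each pathway role the gene with the highest mean and the one with the largest change at a mean of at least 5 CPM. Alternatives were pseudocounts of 0.1 and 2, other filters, median-of-ratios and quantile scaling, limma voom on estimated reads, a replicate block, and leaving out each library.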

Additional observations from a re-analysis of the deposited data

How the results depend on the processing

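Over 14 alternative settings, 0 of 10 members and 0 of 64 other pathway genes had an adjusted p below 0.05 (limma, or limma voom on estimated reads), with fewer genes tested at a filter of 5 CPM, Rapgef3 among those dropped. Over these settings the estimates ran from -0.42 to -0.28 for Rap1a and from 0.82 to 0.97 for Rapgef4. The lowest for Rapgef4 was 0.82 with a pseudocount of 2, which by construction shrinks low genes. The measured values of neither gene overlapped between the genotypes, so leaving out a library or changing the pseudocount or filter could not turn its sign. The count of members at an unadjusted p below 0.05, 2 in the values reported, was 1 with quantile scaling and 1 to 2 with a library left out (1 without WT 2, KO 2 or KO 3). The genes behind this count were not always the same. Nothing is read from it, because the same contrast chose the members. The pathway genes lower at that threshold, 0 as reported, were 2 with the replicate block and 0 to 2 with a library left out (2 without WT 1, 1 without WT 3 and 1 without KO 2). Those higher, 0 as reported, were 1 with quantile scaling. Cdh1 turned to 0.0049 with median-of-ratios and 0.0081 with quantile scaling. Rap2b (0.03) ran from -0.13 to 0.21 with a library left out. The cause was not tested.

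Pairing by replicate number was not seen consistently: correlations of same-numbered deviations were 0.38, -0.31 and -0.22, and not every sample correlated best with its own number. With 3 mice per genotype, these correlations cannot exclude shared litters or handling. The replicate block, given only as a check, called 414 genes lower and 177 higher at an unadjusted p below 0.05, against 260 and 152, and left the members at 2. With quantile scaling these all-gene counts were 193 and 232. The 2 genes past the adjusted threshold became 0 without WT 2, 16 without WT 3 and 1 with voom. Depth limits Rapgef3, Rapgef4 and Rap1gap most.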

Other observations

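The genes whose centred log2 profile over the 6 libraries was most like that of Rap1a, among 11677 genes at a mean of at least 5 CPM, were Eny2, Fam45a and Fbxo30, with root-mean-square differences of 0.0358, 0.0529 and 0.0541 against a median of 0.268 over those genes. For Rapgef4 they were Tfap2e, Pim2 and Zfp825, at 0.149, 0.165 and 0.168 against a median of 0.518. These are descriptions over 6 libraries that share their depth and scaling.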
